A study of Mus musculus with 6 samples.

Results

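The immediate early genes Atf3, Fos, Fosb, Jun, Junb, Egr1, Nr4a1, Ier2, Ier3 and Klf6 were described in single-cell RNA sequencing of mouse small-intestinal epithelium. These are 10 of the 27998 genes in each deposited count matrix, matched by symbol, and each symbol was found in all 6 matrices. The set was picked because Atf3, Nr4a1 and Fosb differed between the genotype groups in crypt cells, so the crypt values of the groups are a description, and counts of calls on that contrast, printed only beside the share of all genes called, support nothing. The study compared 3 libraries labelled Itgb7 KO (genotype Itgb7-/-) with 3 wild-type libraries, all made from the small intestine of C57BL/6J mice at the age of 8 weeks and labelled as epithelial cells. Itgb7 encodes the β7 chain of integrins, including αEβ7, which lets T cells adhere to E-cadherin on epithelial cells, and the study's title asks how such T cells influence the fate of intestinal stem cells through adhesion. The deleted part of Itgb7 and the number of mice behind a library are not stated in the labels. The p-values therefore reflect the spread among 6 libraries, which may be technical.

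Immediate early genes are switched on within minutes of a signal without new protein synthesis. Growth factors, cytokines, adhesion, stretch and tissue dissociation reach them through MAP kinases and through factors already sitting on their promoters, such as SRF and CREB. Fos and Jun proteins pair as the AP-1 transcription factor, and their transcripts decay fast. In many tissues the enzymatic release of single cells is itself known to induce these genes. In the intestinal crypt, Jun is known to cooperate with the Wnt effector TCF4 in proliferation.

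The promoters of Fos, Fosb, Atf3 and Nr4a1 are shown first. RefSeq promoters, 250 bases before to 50 after the annotated start on GRCm38.p6, were searched for 8 of the members, those of Atf3, Fos, Fosb, Jun, Junb, Nr4a1, Ier3 and Klf6. The promoter of Egr1 was left out of the search, and the reference used held none for Ier2. The promoter of Fos lies at chr12:85473640-85473939 on the plus strand, that of Fosb at chr7:19309996-19310295 on the minus strand, that of Atf3 at chr1:191183284-191183583 on the minus strand and that of Nr4a1 at chr15:101266596-101266895 on the plus strand. Each is written from 5′ to 3′ along the gene's own strand, and capitals mark TGACG or its reverse complement CGTCA, the half-site of the cyclic-AMP response element read by CREB and ATF proteins.
Fos: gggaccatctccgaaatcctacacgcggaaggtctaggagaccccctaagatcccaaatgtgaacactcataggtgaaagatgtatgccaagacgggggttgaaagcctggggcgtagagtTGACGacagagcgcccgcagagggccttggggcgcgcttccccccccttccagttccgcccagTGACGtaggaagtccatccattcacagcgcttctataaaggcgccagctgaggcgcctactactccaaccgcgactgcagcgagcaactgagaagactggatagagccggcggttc
Fosb: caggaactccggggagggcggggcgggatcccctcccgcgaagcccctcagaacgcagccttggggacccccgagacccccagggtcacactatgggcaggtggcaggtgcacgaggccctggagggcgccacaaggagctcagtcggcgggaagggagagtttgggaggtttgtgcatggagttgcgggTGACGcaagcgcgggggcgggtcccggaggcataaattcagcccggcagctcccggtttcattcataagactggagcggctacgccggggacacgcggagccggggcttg
Atf3: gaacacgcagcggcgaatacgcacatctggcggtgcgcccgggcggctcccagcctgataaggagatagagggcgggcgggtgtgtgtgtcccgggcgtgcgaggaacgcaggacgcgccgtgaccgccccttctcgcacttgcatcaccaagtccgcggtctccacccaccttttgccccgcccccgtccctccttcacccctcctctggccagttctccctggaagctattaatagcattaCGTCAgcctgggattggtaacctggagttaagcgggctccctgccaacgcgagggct
Nr4a1: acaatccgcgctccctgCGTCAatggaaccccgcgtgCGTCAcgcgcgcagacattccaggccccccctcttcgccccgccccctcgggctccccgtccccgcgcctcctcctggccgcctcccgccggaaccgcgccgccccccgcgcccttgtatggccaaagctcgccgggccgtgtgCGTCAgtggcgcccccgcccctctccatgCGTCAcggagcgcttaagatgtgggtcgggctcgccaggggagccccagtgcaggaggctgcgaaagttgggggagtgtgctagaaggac

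The half-site TGACG was present on either strand in 5 of the 8 promoters, 1 copy each in Atf3, Fosb and Junb, 2 in Fos and 4 in Nr4a1. Jun, Klf6 and Ier3 held none, though Ier3 also separated the groups in stem-like cells, and Fos, which holds it, did not. Of all 32851 promoters of the same length, 20.8% held it. The full element TGACGTCA, which contains 2 overlapping half-sites, was in 0 of the 8 and in 1.79% of all promoters. The AP-1 letters TGANTCA were in 0 of the 8 against 7.81% of all, the CArG box read by SRF in 0 against 1.63%, and TATAAA in 2, Fos and Junb, against 13.6%. These matches are letters in a 300-base window, and the absence of one says nothing of sites elsewhere or of the promoters of Egr1 and Ier2. By the GENCODE M21 annotation of the same assembly, Junos overlaps Jun, Prdx2 overlaps Junb and Gm24748 overlaps Atf3, and how reads in those stretches were counted is not given in the sources used here.

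The libraries held 2797, 5738 and 4642 cell barcodes under the label Itgb7 KO and 2773, 5058 and 5145 under wild-type. The median number of unique molecular identifiers (UMIs, 1 per captured transcript) per cell was 19529, 9284 and 6080 in the Itgb7 KO-labelled libraries 1, 2 and 3, against 22384, 11921 and 12103 in wild-type libraries 1, 2 and 3, so both libraries numbered 1 were deeper and held fewer cells. Serial numbers carried by the deposited files set the same 2 libraries apart. After filters 25068 of 26153 cells were kept, and 410 barcodes occurred in more than 1 library, at most 42 between any 2. The label could not be checked by its target. Itgb7 had 18, 33 and 12 UMIs in the Itgb7 KO-labelled libraries and 3, 8 and 2 in wild-type libraries, the reverse of what a loss of the transcript would give, and a tag at the 3′ end checks nothing if the deleted part lies elsewhere. For that reason the group is called Itgb7 KO-labelled throughout. An exchange of the labels cannot be told apart from such a deletion here, and it would turn the sign of every group difference below. Cells were clustered without these genes, the other immediate early genes and the stress genes, and clusters were named from marker lists. This gave 3082 stem-like, 6532 transit-amplifying-like (TA-like), 4795 lower-villus enterocyte-like, 3038 mature enterocyte-like, 4418 goblet-like and 817 enteroendocrine-like cells, and each of these classes had at least 20 cells in every library. The 230 Paneth-like and 92 tuft-like cells fell short of that and are not compared, and 2064 cells stayed unnamed. Summed T-cell markers over all epithelial classes stood at 0.0789 to 0.196 CPM (UMIs per 1000000) in the Itgb7 KO-labelled libraries and 0.165 to 3.10 CPM in wild-type ones, highest in wild-type library 1. Of the 12 markers 8 to 10 were at 0 in the Itgb7 KO-labelled libraries and 0, 9 and 10 in wild-type libraries 1, 2 and 3.

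In stem-like cells, Atf3, Nr4a1, Fosb and Ier3 were lower in all 3 Itgb7 KO-labelled libraries than in any wild-type library, whereas the other 6 members overlapped between the groups. Levels are UMIs of a gene per 1000000 UMIs, summed over the cells of a class in 1 library (CPM), and differences are log2 fold changes, Itgb7 KO-labelled over wild-type, given ± the standard error (SE) of edgeR's quasi-likelihood fit. Atf3, a stress-induced member of the ATF family that binds the half-site shown above, stood at 41.5, 55.9 and 55.3 CPM in Itgb7 KO-labelled libraries 1, 2 and 3, against 79.0, 135 and 94.7 CPM in wild-type libraries 1, 2 and 3. The groups did not overlap, and library 1 was the lowest of its group in both. Its log2 fold change was −1.04 ± 0.18. Nr4a1, an orphan nuclear receptor induced by growth and calcium signals, stood at 7.68, 15.3 and 15.6 CPM in Itgb7 KO-labelled libraries, against 18.1, 31.9 and 27.2 CPM in wild-type libraries, a log2 fold change of −1.05 ± 0.27. Again no Itgb7 KO-labelled library reached the lowest wild-type one.

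Fosb, the AP-1 subunit most closely related to Fos, had 23.3, 19.8 and 25.2 CPM in Itgb7 KO-labelled libraries, against 34.0, 42.0 and 30.3 CPM in wild-type libraries, a log2 fold change of −0.66 ± 0.17. Ier3, a regulator of cell survival induced by NF-kappaB and stress, had 14.6, 13.1 and 13.6 CPM in Itgb7 KO-labelled libraries, against 23.5, 24.6 and 24.04 CPM in wild-type libraries, a log2 fold change of −0.82 ± 0.15. Both separated the groups, and Ier3 did so with little spread inside either group. Fos itself had 187, 357 and 519 CPM in Itgb7 KO-labelled libraries, against 265, 605 and 347 CPM in wild-type libraries, a log2 fold change of −0.22 ± 0.37. The Fos values of the groups overlapped widely, and Itgb7 KO-labelled library 3 stood above 2 of the wild-type libraries.

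Jun, the partner of Fos in AP-1, had 246, 454 and 483 CPM in Itgb7 KO-labelled libraries, against 294, 502 and 363 CPM in wild-type libraries, a log2 fold change of −0.00 ± 0.25. Junb, a Jun protein with weaker activating power, had 98.4, 191 and 206 CPM in Itgb7 KO-labelled libraries, against 149, 254 and 212 CPM in wild-type libraries, a log2 fold change of −0.34 ± 0.26. Neither Jun gene separated the groups. Egr1, a zinc-finger factor driven by SRF and the ERK kinases, had 96.3, 143 and 199 CPM in Itgb7 KO-labelled libraries, against 137, 282 and 275 CPM in wild-type libraries, a log2 fold change of −0.69 ± 0.30. Klf6, a Krüppel-like zinc-finger factor, had 75.9, 78.9 and 69.8 CPM in Itgb7 KO-labelled libraries, against 76.1, 109 and 93.2 CPM in wild-type libraries, a log2 fold change of −0.33 ± 0.14. Egr1 overlapped through wild-type library 1, and Klf6 overlapped between Itgb7 KO-labelled library 2 and wild-type library 1. Ier2, a nuclear protein of the early growth response, had 245, 334 and 308 CPM in Itgb7 KO-labelled libraries, against 307, 390 and 287 CPM in wild-type libraries, a log2 fold change of −0.18 ± 0.15.

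In TA-like cells, the dividing progeny of stem cells, Fosb was the 1 member whose groups did not overlap. Fosb had 20.7, 19.8 and 22.3 CPM in Itgb7 KO-labelled libraries, against 23.3, 30.4 and 29.5 CPM in wild-type libraries, a log2 fold change of −0.42 ± 0.13. Nr4a1 had 5.12, 9.22 and 9.63 CPM in Itgb7 KO-labelled libraries, against 8.55, 17.96 and 19.3 CPM in wild-type libraries, a log2 fold change of −0.96 ± 0.33. Libraries 2 and 3 separated the groups for Nr4a1, and wild-type library 1 lay among the Itgb7 KO-labelled ones. Atf3 had 43.1, 78.5 and 69.5 CPM in Itgb7 KO-labelled libraries, against 59.4, 103 and 98.2 CPM in wild-type libraries, a log2 fold change of −0.47 ± 0.24. Here too wild-type library 1 lay inside the range of the Itgb7 KO-labelled group. The other members overlapped, with log2 fold changes between −0.60 ± 0.37 for Egr1 and 0.27 ± 0.30 for Jun. Cluster 16, led by the mitotic genes Nusap1 and Spc25, held 30.9% of the TA-like cells of Itgb7 KO-labelled library 2 and 24.9% of those of wild-type library 2, and at most 7 cells of any other library, where cluster 9 took its place.

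**Figure D1:**
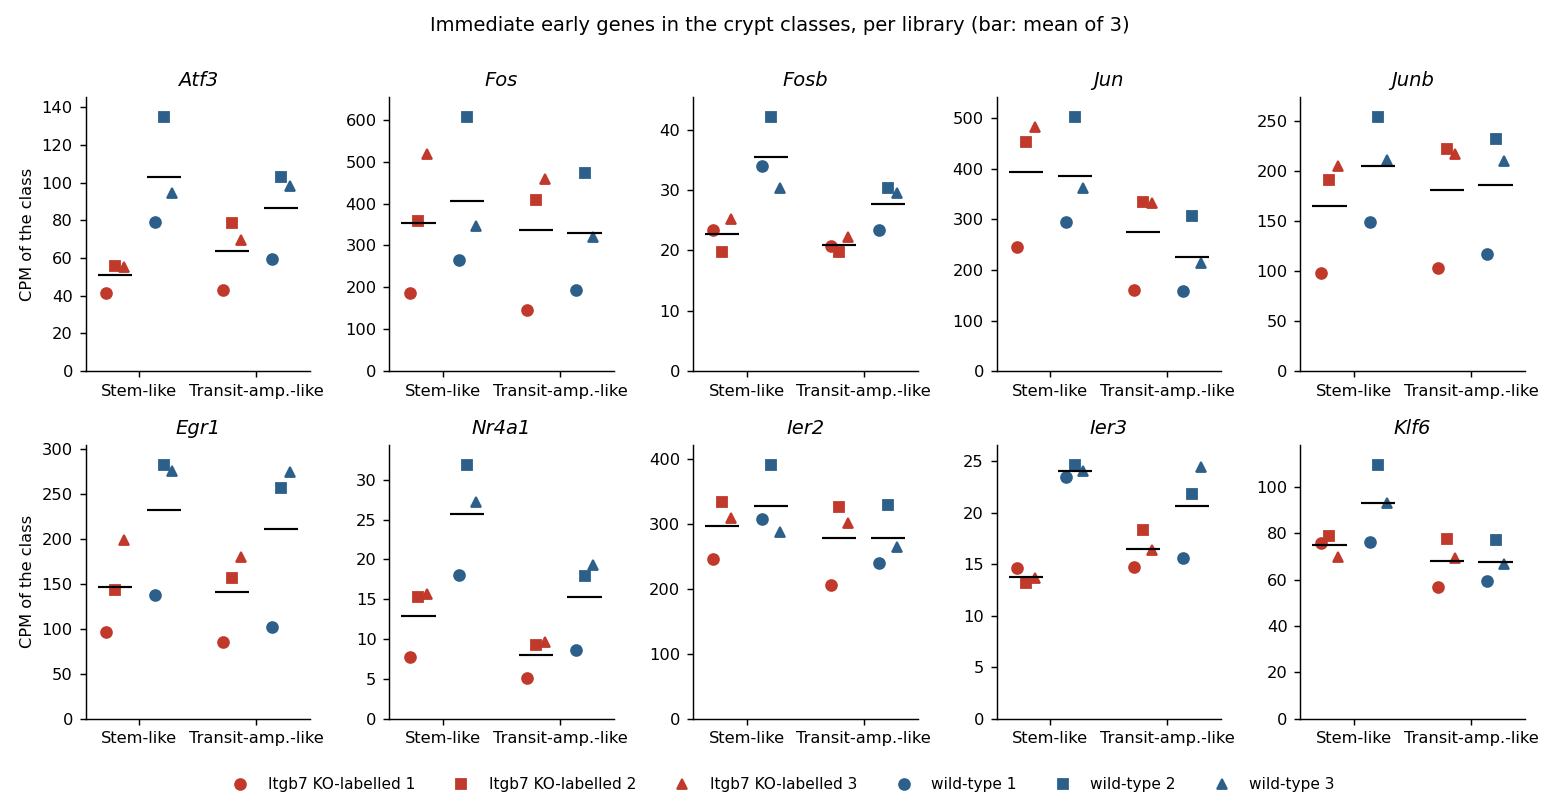
CPM of each gene in stem-like and TA-like cells, 1 point per library (red, Itgb7 KO-labelled; blue, wild-type; the shape gives the library number) with the mean of 3 as a bar. Atf3, Fosb, Nr4a1 and Ier3 show no overlap of the groups in stem-like cells, and the circles of the libraries numbered 1 are low for most genes.

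Counted over the set, 4 of the 10 members were lower in every Itgb7 KO-labelled library than in every wild-type library in stem-like cells, where 4.47% of the 10785 genes tested were. In TA-like cells 1 of 10 was, against 3.95% of 11641 genes. No member was higher in every Itgb7 KO-labelled library in either class, where 3.31% and 2.87% of genes were. The median log2 fold change of the members was −0.50 in stem-like and −0.20 in TA-like cells, while the medians of all genes were 0.00 in both. Leaving out 1 library at a time moved the TA-like median to between −0.38 and −0.11, by over 1.5 times for every library except Itgb7 KO-labelled library 2. With edgeR's quasi-likelihood test and Benjamini-Hochberg adjustment over all genes, 0 of the 10 members passed an adjusted p of 0.05 in either crypt class, where 0.00927% and 0% of genes passed. DESeq2 called 1 member, Atf3, in stem-like cells, where it called 0.0742% of genes, and 0 in TA-like cells. With the files' serial numbers as a block, edgeR also called Atf3 there, with 0.0464% of genes. The genes were picked on this contrast, so these counts are no test of them and nothing is read from them.

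The stem-like values were also taken within each side of the split by library number, where the sign of genes chosen for not overlapping is fixed. Between the 2 libraries numbered 1 alone, the log2 difference of Atf3 was −0.92, that of Nr4a1 −1.198, that of Ier3 −0.66 and that of Fosb −0.53. Among the 4 libraries numbered 2 and 3 it was −1.06 for Atf3, −0.96 for Nr4a1, −0.89 for Ier3 and −0.71 for Fosb. Summed heat-shock genes in stem-like cells stood at 8449, 8783 and 7478 CPM in Itgb7 KO-labelled libraries, against 8003, 8640 and 7551 CPM in wild-type libraries, and their groups overlapped. Summed mitochondrially encoded genes, a sign of cell quality, stood at 45033, 39785 and 49893 CPM in Itgb7 KO-labelled libraries, against 40376, 41158 and 33068 CPM in wild-type libraries, and also overlapped. Summed integrated stress response genes did not overlap, at 276, 276 and 266 CPM in Itgb7 KO-labelled libraries, against 281, 311 and 278 CPM in wild-type libraries. The part that these levels and the handling of the tissue had in the group difference was not tested.

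Outside the crypt, the same libraries were compared, so these values stand beside the crypt values and are no independent support. In goblet-like cells, which secrete mucus, every member overlapped between the groups. Atf3 had 413, 519 and 450 CPM in Itgb7 KO-labelled libraries, against 382, 619 and 527 CPM in wild-type libraries, a log2 fold change of −0.12 ± 0.18. Fos had 891, 2045 and 2236 CPM in Itgb7 KO-labelled libraries, against 802, 1945 and 1253 CPM in wild-type libraries, a log2 fold change of 0.39 ± 0.39. For both genes library 1 was the lowest of its group. Nr4a1 had 60.5, 77.8 and 83.8 CPM in Itgb7 KO-labelled libraries, against 54.6, 122 and 113 CPM in wild-type libraries, a log2 fold change of −0.36 ± 0.27. The median of the 10 members was 0.10 on the log2 scale, and 6 of 10 lay above 0. Leaving out 1 library at a time moved it to between −0.06 without wild-type library 1, with 4 above 0, and 0.28 without wild-type library 2, with 7 above 0. It was −0.02 without Itgb7 KO-labelled library 3, −0.00 without library 2 of that label and 0.23 without its library 1, and 0.05 without wild-type library 3. In goblet-like cells all 12 tested heat-shock genes had a log2 fold change above 0, with a median of 0.39, and none of them passed the test; the part of that shift in the members' values was not tested.

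Enteroendocrine-like cells, the hormone-secreting lineage, gave the members' highest median. It was 0.60, with 9 of 10 above 0, and Atf3, Jun and Klf6 had an unadjusted p under 0.05 in edgeR's fit. The median was 0.19 without Itgb7 KO-labelled library 3 and 0.38 without wild-type library 1, with 0 and 1 members at that p. Thinned to 4000 UMIs per cell, it was 0.13 over the 8 members tested, with 0 at that p. The share of all genes at that p is not given here, so nothing is read from these counts of members. Atf3 had 103, 205 and 197 CPM in Itgb7 KO-labelled libraries, against 84.6, 95.5 and 119 CPM in wild-type libraries, a log2 fold change of 0.68 ± 0.25. Fosb had 55.4, 123 and 206 CPM in Itgb7 KO-labelled libraries, against 69.9, 55.9 and 69.7 CPM in wild-type libraries, a log2 fold change of 0.86 ± 0.39. Itgb7 KO-labelled libraries 2 and 3 lay above all wild-type libraries for both genes. Itgb7 KO-labelled library 1 lay among the wild-type values for Atf3 and just below them for Fosb. Klf6 had 111, 166 and 235 CPM in Itgb7 KO-labelled libraries, against 73.5, 113 and 107 CPM in wild-type libraries, a log2 fold change of 0.74 ± 0.26. Ier3 went the other way without overlap, at 11.0, 11.5 and 12.6 CPM in Itgb7 KO-labelled libraries, against 16.9, 17.8 and 14.1 CPM in wild-type libraries, where 3.12% of 8686 genes showed no overlap in that direction. The Ier3 values rest on 102 UMIs in all.

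The make-up of the enteroendocrine-like class differed between libraries. Clusters 24, with Gcg, Cck and Gip, and 26, with Tac1, Chgb and Chga, held 47.9%, 48.4% and 52.8% of its cells in Itgb7 KO-labelled libraries. They held 44.4%, 35.2% and 40.5% in wild-type libraries. The rest lay in cluster 21, led by the endocrine-progenitor gene Neurog3, and cluster 27, led by the hormone gene Ghrl and by Neurog3. Of the 197 enteroendocrine-like cells of Itgb7 KO-labelled library 3, 144 had under 4000 UMIs. With every cell thinned to 4000 UMIs and shallower cells left out, the members together had 9.68, 12.5 and 7.68 UMIs per cell in Itgb7 KO-labelled libraries, against 6.13, 12.5 and 9.20 in wild-type libraries, an order of libraries that differs from that of the CPM values. The part of cluster make-up and of shallow cells in the group difference was not tested. With libraries 2 and 3 only, a setting chosen after seeing the data, Fosb alone of the members passed the test in enteroendocrine-like cells, with a log2 fold change of 1.32 and an adjusted p of 0.0320 by edgeR's quasi-likelihood test, where 0.555% of genes passed.

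In the enterocyte classes, the absorptive cells of the villus, the groups overlapped for every member. Nr4a1 in lower-villus enterocyte-like cells had 6.10, 13.4 and 8.55 CPM in Itgb7 KO-labelled libraries, against 7.52, 20.05 and 27.3 CPM in wild-type libraries, a log2 fold change of −0.93 ± 0.42. In mature enterocyte-like cells it had 13.4, 24.6 and 20.1 CPM in Itgb7 KO-labelled libraries, against 16.9, 36.3 and 47.1 CPM in wild-type libraries, a log2 fold change of −0.73 ± 0.33. Both sets overlapped through wild-type library 1. Atf3 in mature enterocyte-like cells had 211, 416 and 348 CPM in Itgb7 KO-labelled libraries, against 245, 372 and 336 CPM in wild-type libraries, a log2 fold change of 0.07 ± 0.23. These classes were drawn from different clusters in different libraries. Cluster 0, led by Slc40a1, held 83.0% and 81.3% of the lower-villus enterocyte-like cells of Itgb7 KO-labelled libraries 2 and 3 and at most 1 cell of any other library, and cluster 15, led by Gm766, held 78.2% and 90.8% of their mature enterocyte-like cells and at most 3 cells of any other. In the remaining 4 libraries clusters 10, 13 and 14 held such cells.

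**Figure D2:**
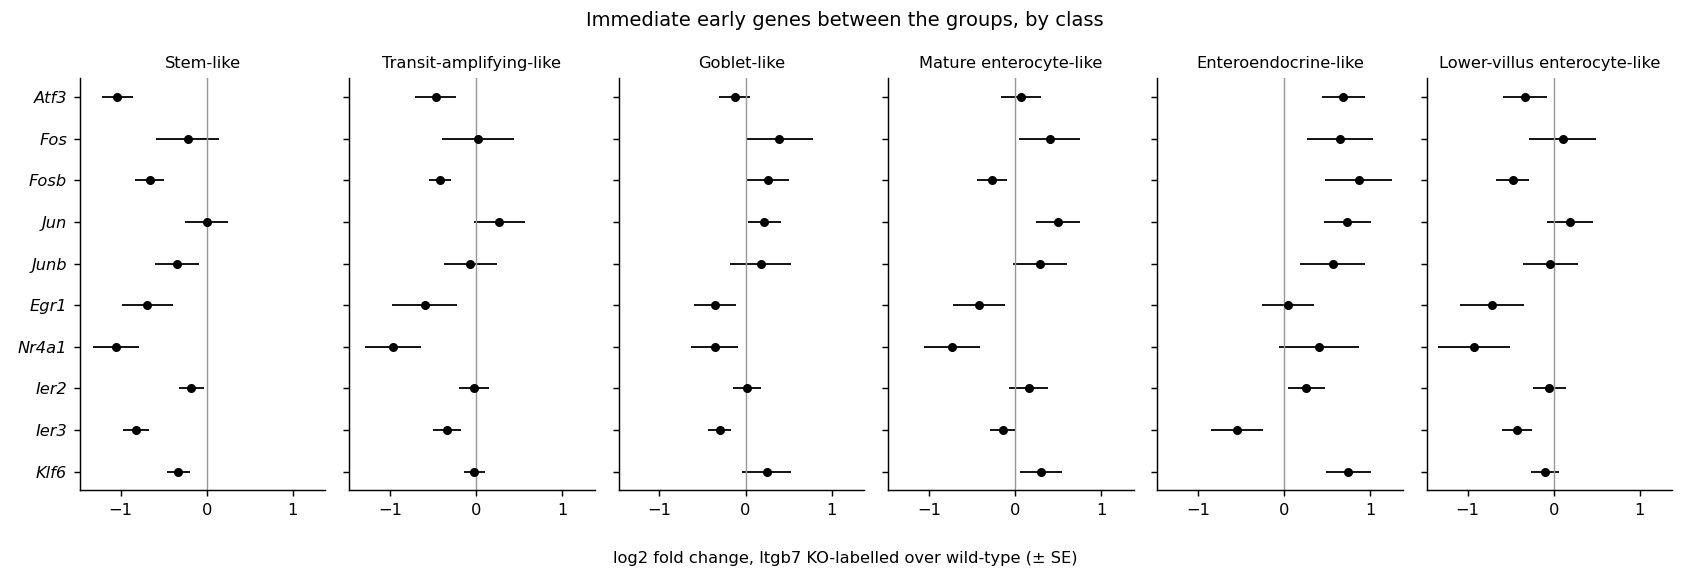
Log2 fold change of each gene, Itgb7 KO-labelled over wild-type, in 6 epithelial classes, from edgeR's quasi-likelihood fit over 3 libraries a group (bars: SE). All 10 points lie at or below 0 in stem-like cells and 9 of 10 above 0 in enteroendocrine-like cells.

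No member passed an adjusted p of 0.05 by edgeR's quasi-likelihood test in goblet-like, enteroendocrine-like, mature enterocyte-like or lower-villus enterocyte-like cells, the smallest adjusted p being 0.904. The shares of all genes that passed were 0.00898%, 0%, 0% and 0.0191%, the last made up of 0.00955% higher and 0.00955% lower. At an unadjusted p under 0.05 the counts of members were 0, 3, 0 and 2, or 1, 6, 3 and 5 with the replicate block. The share of all genes at that unadjusted p is not given here, so nothing is read from these counts. DESeq2 called 0 members in each of the 4 classes. Apart from Ier3 in enteroendocrine-like cells, no member separated the groups in these classes. The share of genes without overlap and lower in the Itgb7 KO-labelled libraries was 4.15% in goblet-like, 7.1% in mature enterocyte-like and 5.78% in lower-villus enterocyte-like cells. The share without overlap and higher was 2.74%, 2.86% and 3.29% in the same 3 classes and 3.32% in enteroendocrine-like cells. Over all epithelial classes summed, 0 of 10 passed by either tool, against 0.00743% of 13458 genes by edgeR, and the counts of non-overlapping members were 0 lower and 0 higher, against 2.87% and 2.56% of genes. There Nr4a1 had 22.6, 23.4 and 24.4 CPM in Itgb7 KO-labelled libraries, against 23.7, 41.6 and 46.6 CPM in wild-type libraries, a log2 fold change of −0.67 ± 0.18. Nr4a1, Atf3 and Ier3 were the 3 members with an unadjusted p under 0.05, again given without the share of all genes. Whether the group difference itself differs between stem-like and enteroendocrine-like cells was not tested.

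All 10 members were higher in goblet-like cells than in the crypt classes (the mean of stem-like and TA-like) in 6 of 6 libraries. Fosb averaged 224 ± 58.9 CPM in goblet-like cells and 26.7 ± 6.05 CPM in crypt cells (SD, n = 6 libraries), with a ratio of 5.49 to 13.8 within libraries and a log2 fold change of 3.28 ± 0.12. Atf3 averaged 485 ± 86.9 CPM in goblet-like cells and 76.1 ± 27.2 CPM in crypt cells, with a ratio of 5.21 to 9.76 and a log2 fold change of 2.97 ± 0.12. Nr4a1 averaged 85.3 ± 27.3 CPM in goblet-like cells and 15.5 ± 7.13 CPM in crypt cells, with a log2 fold change of 2.80 ± 0.11. In each of the 6 libraries the goblet-like value exceeded the crypt value for all 3 genes. Fos averaged 1529 ± 624 CPM in goblet-like cells and 357 ± 144 CPM in crypt cells, with a log2 fold change of 2.36 ± 0.09. The log2 fold changes of Junb, Egr1, Jun, Ier2 and Klf6 lay between 1.58 and 2.24, and that of Ier3 was 0.89 ± 0.08.

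The test counted libraries as blocks, and its p-values take the class labels, which were built from other genes of the same cells, as given. In goblet-like cells 10 of 10 members passed as higher, where 32.7% of 11886 genes were called higher, 44.2% lower and 76.9% in either direction, and the members' median was 2.19 against −0.11 for all genes. In mature enterocyte-like cells 10 of 10 passed as higher, where 38.4% of genes were called higher, 42.8% lower and 81.2% in either direction, with a median of 1.07 against −0.08. The largest adjusted p among these 20 tests was 4.6e-08 by edgeR's quasi-likelihood test, and every member was higher in 6 of 6 libraries in both. Atf3 led in mature enterocyte-like cells, at 321 ± 78.1 CPM there and 76.1 ± 27.2 CPM in crypt cells, a log2 fold change of 2.29 ± 0.13. Junb (1.74 ± 0.08) and Klf6 (1.61 ± 0.10) came next, and the other 7 lay between 0.81 and 1.10.

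In enteroendocrine-like cells 8 members passed as higher than in crypt cells and 1, Ier3, as lower, where 27% of genes were called higher, 33.7% lower and 60.7% in either direction. Fosb averaged 96.6 ± 58.9 CPM in enteroendocrine-like cells and 26.7 ± 6.05 CPM in crypt cells, a log2 fold change of 1.59 ± 0.19, and its ratio ran between 1.54 and 8.66 over libraries. Nr4a1 averaged 39.8 ± 21.5 CPM in enteroendocrine-like cells and 15.5 ± 7.13 CPM in crypt cells, a log2 fold change of 1.196 ± 0.21. Both were higher in 6 of 6 libraries, with a wide spread between them. Ier3 averaged 13.99 ± 2.84 CPM in enteroendocrine-like cells and 18.7 ± 4.25 CPM in crypt cells, lower in 6 of 6 libraries, with a log2 fold change of −0.58 ± 0.18 and an adjusted p of 0.00504 by edgeR's quasi-likelihood test. Ier2 did not pass by that test (0.10 ± 0.07, adjusted p = 0.195), and DESeq2 called it higher.

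**Figure D3:**
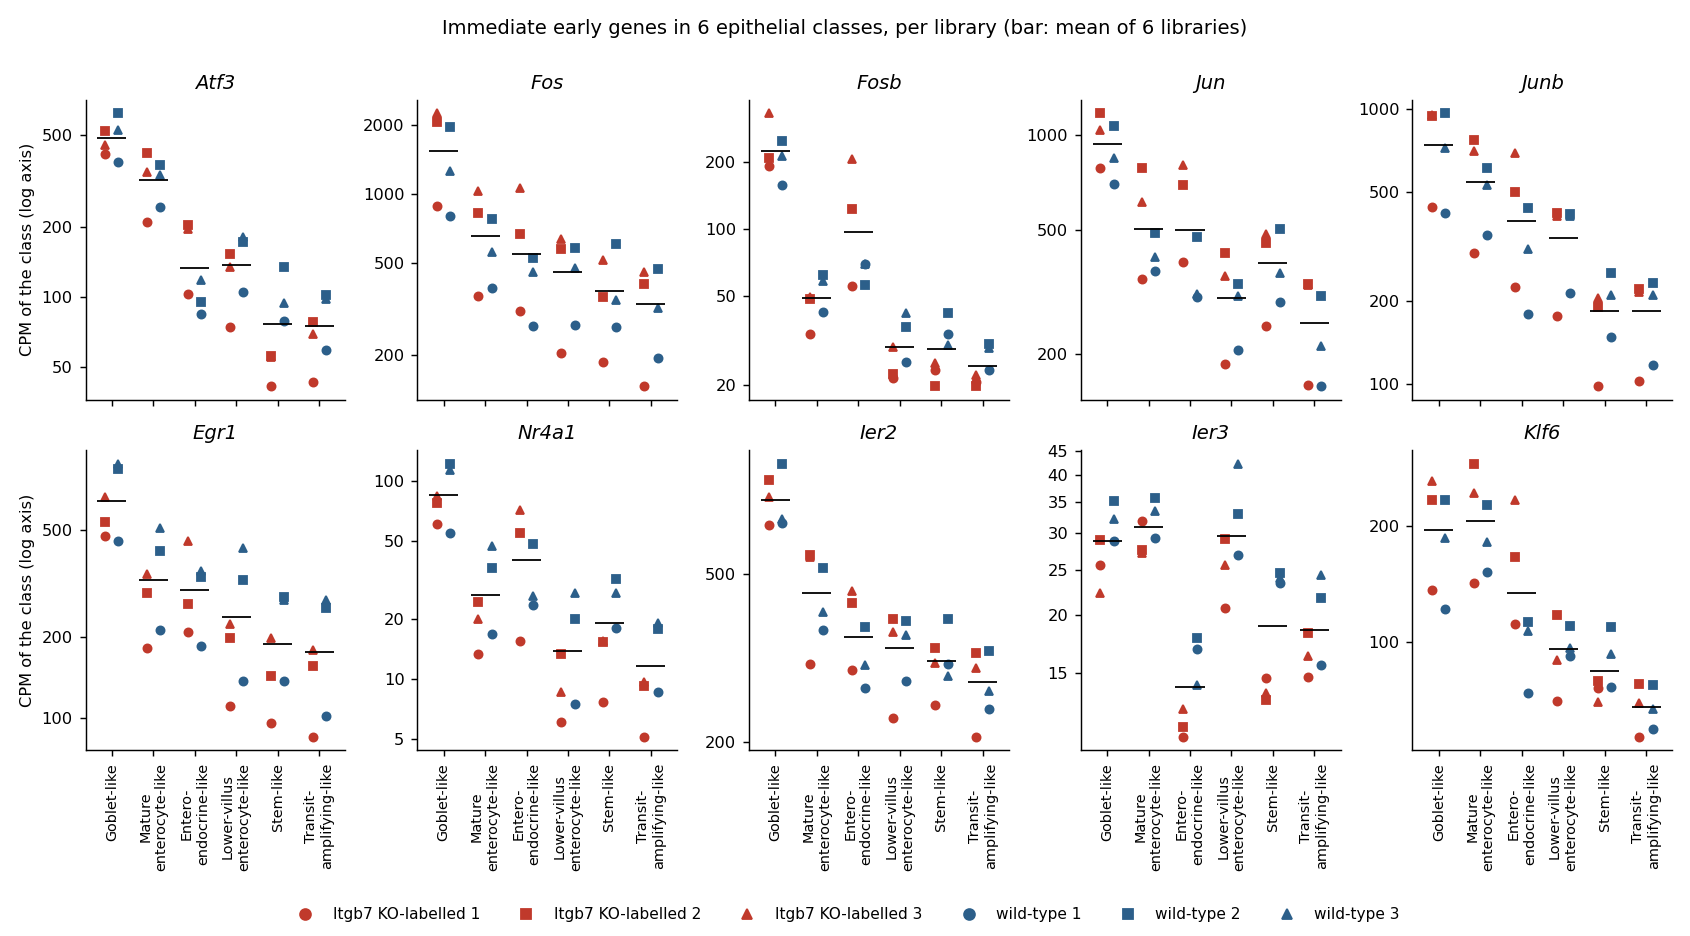
CPM of each gene on a log axis in 6 epithelial classes, 1 point per library (red, Itgb7 KO-labelled; blue, wild-type) with the mean of the 6 libraries as a bar. Goblet-like cells stand highest for 8 of the 10 genes and mature enterocyte-like cells for Ier3 and Klf6.

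Ordered by mean CPM over the 6 libraries, goblet-like cells came first for 8 members and mature enterocyte-like cells for Ier3 and Klf6. TA-like cells came last for 9 members and enteroendocrine-like cells for Ier3. Atf3 averaged 485 ± 86.9 CPM in goblet-like, 321 ± 78.1 in mature enterocyte-like, 137 ± 41.3 in lower-villus enterocyte-like, 134 ± 53.0 in enteroendocrine-like, 76.8 ± 34.1 in stem-like and 75.3 ± 22.9 in TA-like cells (SD, n = 6). Its steps between goblet-like and mature enterocyte-like cells and between mature and lower-villus enterocyte-like cells held in 6 of 6 libraries. The lower-villus enterocyte-like and enteroendocrine-like levels held that order in 3 of 6 libraries, and stem-like exceeded TA-like in 2 of 6. Fos averaged 1529 ± 624 CPM in goblet-like, 659 ± 265 in mature enterocyte-like, 549 ± 289 in enteroendocrine-like, 459 ± 181 in lower-villus enterocyte-like, 380 ± 156 in stem-like and 333 ± 138 in TA-like cells. Only the first of these Fos steps, from goblet-like to mature enterocyte-like cells, held in all 6 libraries. Jun broke the pattern in the crypt, with 390 ± 106 CPM in stem-like cells above 302 ± 90.2 CPM in lower-villus enterocyte-like cells in 6 of 6 libraries.

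Of the 50 pairs of neighbouring classes over the 10 members, 20 kept 1 direction in all 6 libraries. The exact 2-sided sign-flip permutation test cannot go below p = 0.0313 with 6 libraries, and after Benjamini-Hochberg adjustment over the 50 pairs the smallest value was 0.0781, so no pair passed 0.05. From the first class to the last, 10 of 10 members kept their direction in 6 of 6 libraries. A p that misses the threshold in this design does not show that neighbours are alike.

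Within classes the level followed the cluster. Among goblet-like cells the summed members averaged 7451 ± 2086 CPM (SD, n = 6) in cluster 7, led by Serpina1b, Rgs2 and Zg16, and 6513 ± 1171 CPM in cluster 11, led by Zg16 and Fcgbp. Cluster 8, led by Ccl9 and Rnase1, averaged 5130 ± 979 CPM, and cluster 18, led by the secretory-fate genes Atoh1 and Dll1, averaged 3099 ± 622 CPM. Cluster 25, led by Muc2 and with cell-cycle genes such as Mki67 among its leading genes, averaged 1897 ± 350 CPM (n = 2 libraries with at least 20 cells), at a median of 37730 UMIs per cell. Those 2 were the libraries numbered 1, which were low for most members, so its mean does not compare directly with means over 6 libraries. The clusters thus differed, with the Atoh1-led cluster and cluster 25 lowest. The part of depth and of the libraries used in this was not tested. Among enteroendocrine-like cells, cluster 26 with Tac1, Chgb and Chga averaged 7269 ± 2315 CPM (n = 4 libraries with at least 20 cells), cluster 24 with Gcg, Cck and Gip 4010 ± 1494 CPM (n = 5), the Ghrl-led cluster 27 2362 ± 694 CPM (n = 4) and the Neurog3-led cluster 21 1086 ± 118 CPM (n = 6). The lowest library of cluster 26 stood at 3946 CPM and the highest library of cluster 21 at 1198 CPM. The libraries used differed: cluster 26 had the 3 Itgb7 KO-labelled libraries and wild-type library 2, and cluster 24 all but wild-type library 1. Cluster 27 had only the libraries numbered 2 and 3. Median UMIs per cell were 3958 in cluster 26 and 9366 in cluster 21. The part of depth and of the libraries used in this difference was not tested.

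Atf3 followed the same order in that lineage, with means of 444 CPM in cluster 26, 249 CPM in cluster 24 and 41.6 CPM in cluster 21. Fosb had means of 338 CPM in cluster 26, 170 CPM in cluster 24 and 20.8 CPM in cluster 21. Cluster 27, led by the hormone gene Ghrl and by Neurog3, had means of 72.3 CPM for Atf3 and 40.9 CPM for Fosb. Both genes were thus lowest in cluster 21, next lowest in cluster 27 and higher in clusters 24 and 26. The stem-like clusters 3, 6 and 20 lay close together, at 1744, 1592 and 1990 CPM of summed members. Of the TA-like clusters, those with the mitotic kinase Aurka among their leading genes (9 and 16) stood at 1867 CPM (n = 6) and 2252 CPM (n = 2, the libraries numbered 2) and the other 4 between 1162 and 1299 CPM (n = 6 each). Cluster 9 ranged over 912 to 2506 CPM, and few of its cells came from the libraries numbered 2. These cluster values are descriptions, since clusters were built on other genes of the same cells.

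**Figure D4:**
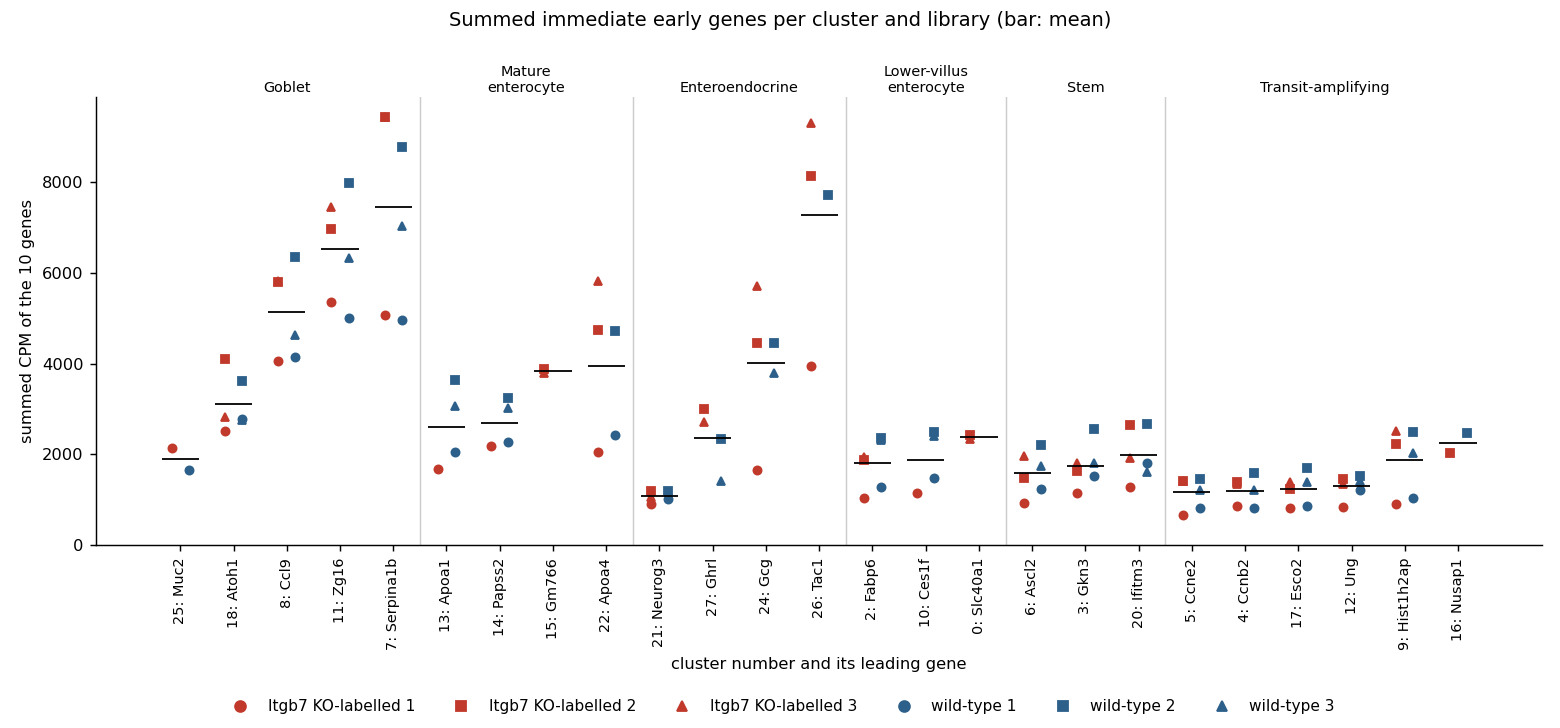
Summed CPM of the 10 genes in each cluster of 6 classes, 1 point per library with at least 20 cells (red, Itgb7 KO-labelled; blue, wild-type) and the mean as a bar. Within goblet-like and enteroendocrine-like cells the clusters differ several times over, while the stem-like clusters lie near one another.

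The pathway around the members was described with lists of genes, chosen with earlier results of these data known. In goblet-like over crypt cells, 30 of 35 tested other immediate early genes were higher and 3 lower, with a median log2 fold change of 1.86 against −0.11 for all genes. Examples are Klf4, a goblet-cell differentiation factor (4.03 ± 0.08), Jund (1.70 ± 0.06), Gadd45g (2.88 ± 0.10) and the anti-proliferative Btg2 (2.71 ± 0.09). These shares stand beside 32.7% of all genes called higher and 44.2% lower. Of 20 tested upstream kinases and factors 8 were higher and 5 lower, with a median log2 fold change of 0.11 against −0.11 for all genes. Among them were Mapk3, which encodes ERK1 (1.002 ± 0.04), Srf (1.28 ± 0.09), Mapk14, which encodes p38α (0.79 ± 0.07) and, lower, the SRF cofactor Mkl2 (−0.75 ± 0.06). Of 8 integrated stress response genes 7 were higher and none lower, with Atf4 at 1.60 ± 0.05 and Ddit3 at 2.69 ± 0.11. Of 7 tested NF-kappaB early targets 5 were higher, with Birc3 at 1.03 ± 0.07 and Cxcl1 at 1.90 ± 0.26. Heat-shock genes did not move together, with 4 higher and 6 lower of 12, the cochaperones Dnajb1 (2.41 ± 0.09) and Bag3 (1.42 ± 0.07) among the higher and Hspd1 (−1.38 ± 0.07) and Hsp90ab1 (−0.66 ± 0.04) among the lower.

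In mature enterocyte-like over crypt cells, 29 of 35 other immediate early genes were higher and 2 lower, with Ier5 at 2.22 ± 0.08, Pim1 at 2.01 ± 0.08 and Myc, a driver of crypt proliferation, at −3.18 ± 0.11. Of 7 NF-kappaB early targets 6 were higher and none lower, led by Tnfaip3 at 2.11 ± 0.09 and Nfkbiz at 1.59 ± 0.07. Of all genes 38.4% were called higher and 42.8% lower there. The kinase list, with 7 higher and 8 lower of 20, lay near those shares, and the heat-shock list had 6 higher and 6 lower of 12. In enteroendocrine-like over crypt cells, 22 other immediate early genes were higher and 4 lower of 35, led by Gadd45g at 3.78 ± 0.11 and Gadd45a at 2.83 ± 0.09, where 27% of all genes were higher and 33.7% lower. There 1 NF-kappaB early target was higher and 2 lower of 7, with Nfkbia, the inhibitor of NF-kappaB, at −0.67 ± 0.10. Among 8 integrated stress response genes 4 were higher in enteroendocrine-like and 4 higher with 2 lower in mature enterocyte-like cells.

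Between Itgb7 KO-labelled and wild-type libraries no gene of these 5 lists passed the test in any of the 6 classes. In stem-like cells 6 of 32 tested other immediate early genes had a log2 fold change above 0, with a median of −0.28, and the heat-shock genes had a median of 0.06 with 7 of 12 above 0. In enteroendocrine-like cells 21 of 28 other immediate early genes lay above 0, with a median of 0.40. The median of all genes was 0.0046 in stem-like and −0.0069 in enteroendocrine-like cells. Those counts run the same way as the members' own in both classes, in the same libraries. They are no independent support, since the summed list also correlated with the summed members from cell to cell, as given below.

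With all 6 libraries, the median spread of the members between libraries of a group exceeded that of all genes in each class. It fell below in mature enterocyte-like cells without Itgb7 KO-labelled library 1 (0.198 against 0.229). The same held in goblet-like cells without wild-type library 1 (0.246 against 0.248). In stem-like cells the pooled standard deviation of log2 CPM within groups had a median of 0.330 over the members and of 0.239 over all genes, and in TA-like cells of 0.433 over the members and 0.230 over all genes. In stem-like and goblet-like cells Fos had the widest spread of the members, with a standard deviation of 0.620 in stem-like cells, above that of 94.8% of genes, and of 0.666 in goblet-like cells, above that of 94.7%. Ier3 had the narrowest spread in both, at 0.121 in stem-like cells, above that of 14.05% of genes. Nr4a1 was the widest in lower-villus enterocyte-like (0.705) and enteroendocrine-like cells (0.789), and Klf6 the narrowest in TA-like (0.143) and lower-villus enterocyte-like cells (0.213). Library 1 was the lowest of its group in 54 of the 60 sets of a member and a class among Itgb7 KO-labelled libraries and in 56 of 60 among wild-type libraries. In goblet-like cells it was lowest in both groups for 9 of 10 members, where 28.1% of all genes had that pattern, and in stem-like cells for 6 of 10, where 33.8% had it. The count was 9 in TA-like, 10 in lower-villus enterocyte-like, 9 in mature enterocyte-like and 8 in enteroendocrine-like cells, where 36.1%, 35.6%, 32.5% and 36.2% of genes had it, and 9 over all epithelial classes, where 50.5% had it. The libraries numbered 1 were also the deepest and held the fewest cells, and the part of depth or handling in their lower levels was not tested. With every cell thinned to 4000 UMIs, stem-like cells held 4.16, 6.79 and 7.42 member UMIs per cell in Itgb7 KO-labelled libraries, against 5.76, 9.88 and 7.23 in wild-type libraries. In enteroendocrine-like cells, given above, Itgb7 KO-labelled library 3 and not library 1 was the lowest of its group after thinning.

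Within single libraries the members were correlated from cell to cell. Correlations were computed over the cells of 1 library and class after thinning to 4000 UMIs, and are given without a test, because cells of a library are not replicates and share its handling. The median Pearson correlation of the 45 member pairs averaged 0.389 over 6 libraries in goblet-like cells (range 0.332 to 0.458), 0.348 over 5 libraries in enteroendocrine-like and 0.237 over 6 libraries in mature enterocyte-like cells. It averaged 0.171 in stem-like, 0.163 in TA-like and 0.168 in lower-villus enterocyte-like cells. Over all pairs of detected genes the median lay between −0.0245 and 0.00356 in every library and class. The 99th percentile of all pairs averaged 0.111 among goblet-like and 0.117 among stem-like cells, and on average 36.7 of 45 member pairs in goblet-like and 30.7 in stem-like cells exceeded it. Enteroendocrine-like cells had a higher 99th percentile, averaging 0.277, which 28.6 member pairs exceeded. Thinned to 2000 UMIs, the order of the top classes turned, with 0.312 in enteroendocrine-like and 0.267 in goblet-like cells.

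Fos and Jun were the most correlated pair in stem-like cells (mean r = 0.416), in lower-villus enterocyte-like cells (0.438) and in goblet-like cells (0.643), where Atf3 and Fos followed at 0.642. Fos and Junb led in TA-like cells (0.416), Jun and Junb in mature enterocyte-like cells (0.490) and Atf3 and Fosb in enteroendocrine-like cells (0.518). At the other end, Ier3 had a mean correlation of 0.0483 with the other members, against 0.339 for Fos. In stem-like cells Ier3 averaged 0.0749 with the other members, the lowest of the members there. Its pairs ran from 0.00223 with Nr4a1 to 0.135 with Fos, where the 99th percentile of all gene pairs averaged 0.117. Ier3 thus separated the groups in stem-like cells while being the member least correlated with the others from cell to cell. Sparse counts lower such correlations, and Ier3 and Nr4a1 were detected in at least 5% of cells in 31 and 25 of the 35 sets of a library and a class, while the other 8 were so in all 35.

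**Figure D5:**
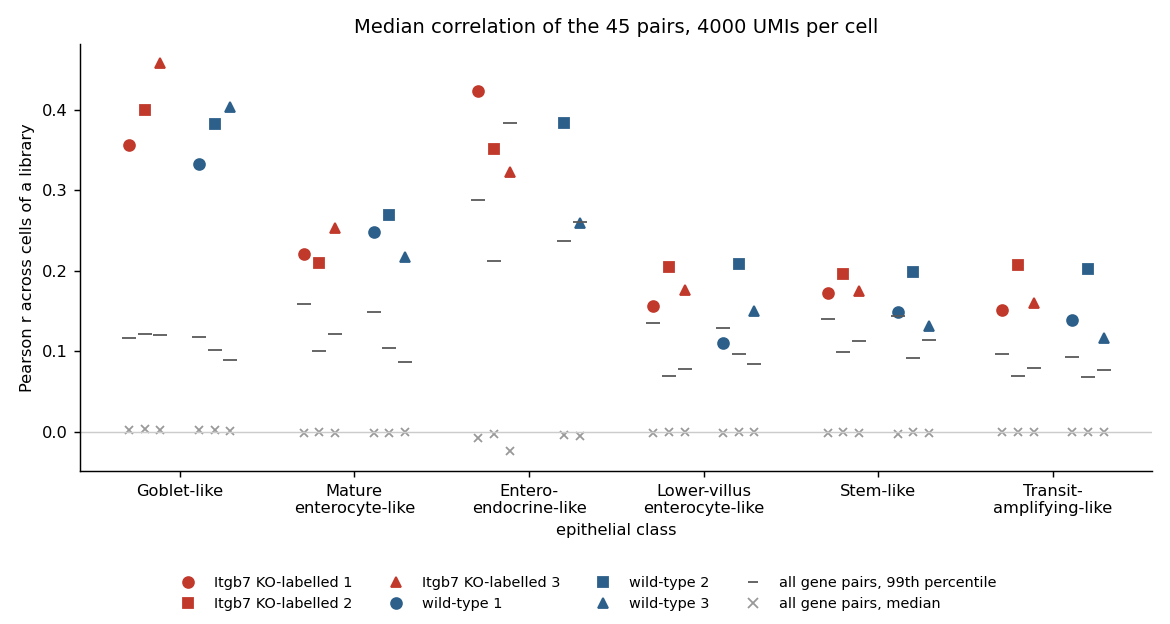
Median Pearson r of the 45 member pairs across the cells of each library (coloured points; red, Itgb7 KO-labelled; blue, wild-type) in 6 classes, cells thinned to 4000 UMIs, beside the 99th percentile (dash) and median (cross) over all gene pairs. Goblet-like cells lie between 0.332 and 0.458 and stem-like cells between 0.131 and 0.199, while the medians of all pairs lie near 0.

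Of the 3606 other genes compared over 35 sets of a library and a class, the most alike were Dusp1, a phosphatase of MAP kinases (mean r = 0.432), Zfp36, an RNA-decay factor (0.372), Hbegf, a ligand of the EGF receptor (0.354), Btg2 (0.346) and Dnajb1 (0.343). Jund (0.323), Pnrc1 (0.292), Neat1 (0.286) and Cdkn1a (0.282) followed, while the median gene stood at −0.01 and the 99th percentile at 0.138. Of the 10 most alike genes 4 are on the list of other immediate early genes, of which 12 could be compared. The summed other immediate early genes correlated with the summed members at 0.786 on average among goblet-like and 0.499 among stem-like cells. Summed heat-shock genes did so at 0.0899 in goblet-like, 0.00332 in stem-like, 0.313 in mature enterocyte-like and −0.108 in enteroendocrine-like cells. Integrated stress response genes stood at 0.435 in goblet-like and 0.172 in stem-like cells, and the mitochondrial share at −0.0787 in goblet-like and 0.0402 in stem-like cells. Depth before thinning correlated at −0.261 in goblet-like and −0.394 in enteroendocrine-like cells, the cells with fewer UMIs having more member UMIs at equal depth. It stood at −0.0619 in stem-like, 0.108 in TA-like, 0.0898 in lower-villus enterocyte-like and 0.118 in mature enterocyte-like cells. In stem-like cells and in goblet-like ones the correlation was thus highest with the summed other immediate early genes, with the integrated stress response sum next. The heat-shock sum adds genes that did not move together, and Dnajb1 alone stood at 0.560 in goblet-like and 0.193 in stem-like cells. The part of handling or stress in these correlations was not tested.

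In stem-like cells the 10% of cells with the most member UMIs held 31.2% to 34.0% of them in Itgb7 KO-labelled libraries and 26.9% to 30.4% in wild-type libraries. The variance of member UMIs per cell over their mean overlapped, at 4.22, 6.83 and 6.46 against 4.07, 8.11 and 3.99. The genes were picked on crypt cells of these groups, so nothing is read from these shares. The part of the members' level in them was not tested. In goblet-like cells that 10% held 23.8% to 27.1% in Itgb7 KO-labelled libraries and 22.6% to 25.6% in wild-type libraries.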

How the data were processed

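Single-cell RNA of mouse small-intestinal epithelium was captured with a 10x Chromium 3′ kit. The deposited values are raw counts of UMIs per gene and cell barcode, made by the authors with Cell Ranger 2.1.1 after bcl2fastq 2.17.1.14, with mm10 as the genome build, per the submitters' processing notes. The notes also name Seurat, with no role. The total per library lay between 28475253 and 76133693 UMIs.

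Barcodes under 500 genes or 1000 UMIs, or above 25% mitochondrial counts, were dropped. The automatic doublet threshold of Scrublet marked too few cells to have worked, so the top-scoring 0.8% per 1000 barcodes were removed, 977 in all. For clustering, scanpy 1.11.5 normalized the counts and picked 2000 variable genes without the members and stress lists. The 30 components were corrected for library by a Harmony-type method and clustered (15 neighbours, Leiden resolution 1.5). Clusters were named from marker lists when at least 3 markers were raised. After this correction a few clusters were held by few libraries, as given beside the values. Raw counts were summed per library and class, and tested with edgeR 4.0.16 (quasi-likelihood, TMM, filter on low counts, R 4.3.3), with libraries as blocks for class contrasts. All 10 members were described and all passed the filter in every comparison. Of each list up to 4 called genes were named by adjusted p, and so were the 10 most correlated other genes, of which 1 is not reported here. Correlations used cells thinned to 4000 UMIs.

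Members and lists were chosen with earlier results of these data known. Replicate numbers come from the labels. Same-numbered libraries of the groups deviated together in every class, with correlations of 0.129 to 0.667 (at most 0.529 across numbers). That met the rule used here (every same-number correlation over 0.1), but the rule cannot show that the numbers pair the libraries. With 3 libraries centred per group and library 1 apart in both, libraries 2 and 3 are pushed to correlate whatever their pairing. The main group tests were therefore left unpaired. The libraries numbered 1 gave the highest values, and Itgb7 KO-labelled library 3 correlated more with wild-type library 2 than with wild-type library 3 in every class. In enteroendocrine-like cells, Itgb7 KO-labelled library 2 correlated more with wild-type library 3 (0.237) than with wild-type library 2 (0.209). Alternatives were DESeq2 1.42.0, other scaling, no filter, other class definitions and filters, a replicate block, a block for the files' serial numbers, and leaving out each library. Scripts were tested on simulated data.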

Additional observations from a re-analysis of the deposited data

How the results depend on the processing

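The class contrasts kept their direction in 390 of 390 values under the alternatives, and 387 kept their side of the threshold. The 3 others were Ier2 in enteroendocrine-like cells, which passed with DESeq2, with DESeq2's type of size factors in edgeR, and with classes clustered with the members kept. In that clustering, which also kept the stress lists, only 73.3% of cells had the same class as in the main one. In stem-like cells, Atf3, Fosb, Nr4a1 and Ier3, whose sign their choice largely fixes, had ranges of −1.18 to −0.83, −0.77 to −0.52, −1.23 to −0.81 and −0.93 to −0.63. Of 1048 group log2 fold changes under alternatives 74 turned sign with no call on either side. The number of members called between the groups was 0 by the edgeR test and 1 (Atf3 in stem-like cells) with DESeq2 and with the serial-number block, on the contrast the genes were picked on, so that this is no support. It was 1 (Fosb in enteroendocrine-like cells) with libraries 2 and 3 only. The cause of these changes was not tested. Leaving out each library gave 0 to 0 members called between the groups in every class, and 10, 10 and 9 in the mature enterocyte-like, goblet-like and enteroendocrine-like contrasts.

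The replicate block changed no member's call. It raised the genes called in enteroendocrine-like cells to 35 of 8686, against 0 without it. Across all alternatives the genes called were 0 to 8 in stem-like cells (1 by the main test), 0 to 6 in TA-like (0), 0 to 14 in lower-villus enterocyte-like (2), 0 to 7 in mature enterocyte-like (0), 0 to 16 in goblet-like (1), 0 to 57 in enteroendocrine-like (0) and 0 to 26 over all epithelial classes (1).

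The median pair correlation depends on depth by construction. Without thinning it was 0.295 in stem-like, 0.303 in TA-like, 0.279 in lower-villus enterocyte-like, 0.377 in mature enterocyte-like, 0.508 in goblet-like and 0.425 in enteroendocrine-like cells. Thinned to 2000 UMIs it was 0.0969, 0.101, 0.116, 0.138, 0.267 and 0.312 in the same order, enteroendocrine-like cells then standing above goblet-like ones. The spread of the members between libraries was 0.198 to 0.468 in mature enterocyte-like cells and 0.246 to 0.421 in goblet-like cells when 1 library was left out, lowest without Itgb7 KO-labelled library 1 and without wild-type library 1. At these lowest values the medians of all genes were higher, at 0.229 and 0.248. Low counts limit Ier3 and Nr4a1 most.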
